A study of Gossypium bickii with 18 samples.

Results

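Transcript levels in cotyledons of Gossypium bickii, a diploid Australian cotton, were compared between seedlings 24 h and 12 h after imbibition, both under light. Imbibition is the uptake of water that starts germination. The genes considered were those at 1 FPKM or more (fragments scaled by gene length and by the mapped fragments of the library) in at least 3 of the 6 libraries of these times, which took in 22438 of 43790 gene IDs, or 51.2%. There were 3 libraries at each time. The other groups used here were cotyledons at 0 h, for which the labels give no light condition, at 36 h and 48 h under light, and at 24 h in the dark, with 3 libraries each. The labels call the libraries biological replicates and do not tie them to plants or seed batches, so that p-values measure only the spread between these samples.

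In a germinating oilseed the cotyledons pass from a store of protein and oil to a green, photosynthetic organ. Messenger RNAs kept in the dry seed are lost as the embryo takes up water, genes for the breakdown of reserves are transcribed, and under light the plastids turn into chloroplasts. In many cottons the cotyledons also carry pigment glands, cavities that hold gossypol and related terpenoids, and the series was set up around these glands. The files list genes by ID and do not pair the IDs with names, so that no gene below is tied to any of these processes and the tissue could not be checked against marker genes. In bulk tissue, fewer cells of a type and less RNA per cell cannot be told apart.

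Between 12 h and 24 h far more genes rose than fell. Of the 22438 genes, 2403 were higher at 24 h, or 10.7%, and 567 were lower, or 2.53% (limma on log2(FPKM + 1), Benjamini-Hochberg adjusted p under 0.05 and a log2 difference of at least 1 in size). Over all 26086 genes tested in the time course the corresponding shares were 9.53% and 2.21%. The 3 libraries at 24 h did not overlap with the 3 at 12 h for 2390 of the higher and 559 of the lower genes, and for 47.9% of all genes considered. The median gene considered moved by 0.06 log2 units and the median gene tested by 0.07. Of the genes called, 80.9% were higher with FPKM as deposited and 66.5% after quantile normalization, which set the median gene at -0.09 and gave 1772 higher and 893 lower.

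On the log2(FPKM + 1) scale, most of the called changes were from 1 to 2 log2 units in size. The minimum of 1 for a call bounds them from below, and the pseudocount of 1 understates changes of scarce transcripts. Of the genes that rose, 426 had a mean under 2 FPKM over the 6 libraries and 1154 a mean from 2 to 10 FPKM. Among the genes that rose, 1935 (80.5%) had a log2 difference from 1 to 2, 347 from 2 to 3, 88 from 3 to 4 and 33 of 4 or more, up to 6.37. The median was 1.44, with a median SE of 0.23. Among the genes that fell, 488 (86.1%) had a log2 difference from -1 to -2, 71 from -2 to -3, 7 from -3 to -4 and 1 lay beyond that, at -4.68. A further 2138 genes had a positive and 1431 a negative difference with an adjusted p under 0.05 but less than 1 log2 unit in size in the same limma fit.

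**Figure D1:**
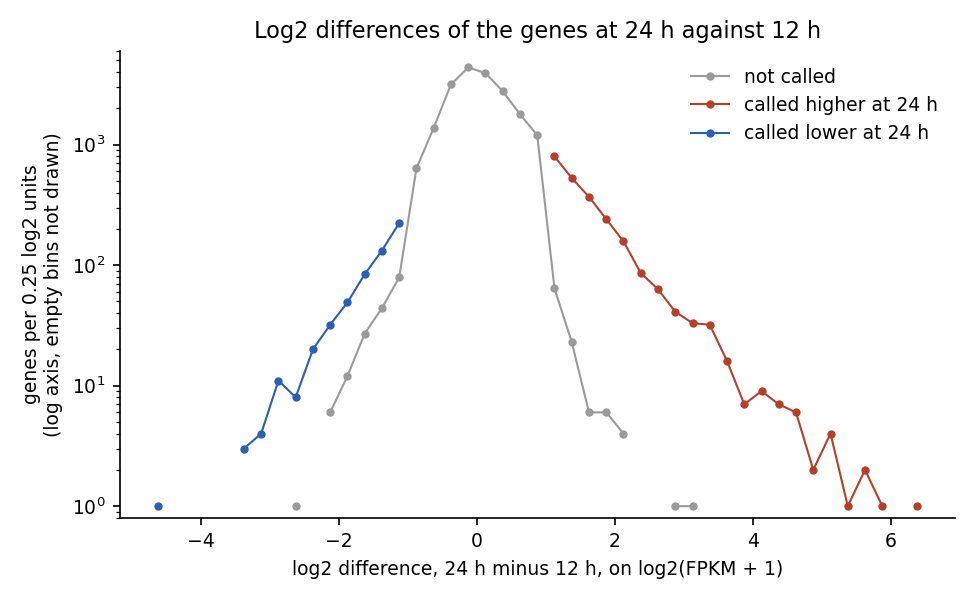
Number of genes (vertical, log axis) against the log2 difference at 24 h minus 12 h on the log2(FPKM + 1) scale (horizontal, bins of 0.25), for 2403 genes called higher, 567 called lower and 19468 not called. The right tail reaches 6.37 and the left tail -4.68.

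A gene without a call was not thereby shown to be level. For 14112 genes (62.9%) that were not called, the 95% confidence interval of the log2 difference lay between -1 and 1, and for 3039 of these (13.5% of the genes considered) it lay between -0.5 and 0.5. These intervals are unadjusted. The remaining 5356 genes (23.9%) were neither called nor held within 1 log2 unit, and their intervals reached past 1 log2 unit in at least one direction.

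Most called genes stood at 1 FPKM or more at both times, but a smaller part of them did so than of all genes considered. Of the 2403 genes that rose, 1475 stood at 1 FPKM or more in all 6 libraries, as did 426 of the 567 that fell. Over all 22438 genes considered, 18973 did so. Another 614 of the genes that rose were under 1 FPKM in all 12 h libraries and at 1 or more in all 24 h libraries, and 68 of those that fell did the reverse. Of the 22438 genes considered, 1083 crossed 1 FPKM in this way, and they entered the set through the time at which they were high. Of the genes that rose, 28 had a listed value of 0 in each 12 h library, with means from 1.23 to 14.5 FPKM and a median of 2.19 FPKM at 24 h. Of those that fell, 3 were listed at 0 in all 24 h libraries, from means of 1.41 to 2.24 FPKM at 12 h. A listed 0 may be a failed estimate, so no fold is given for these genes.

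The share of genes called lower was highest among abundant transcripts. The share called higher was highest among scarce ones, where the minimum of 1 FPKM can partly set it. Genes under that level at one time entered only through the other time. Over all levels this held for 614 of the genes called higher. How many of these had a mean under 2 FPKM was not counted. Of 3177 genes with a mean under 2 FPKM over the 6 libraries, 13.4% rose and 1.89% fell. The shares were 11.8% and 2.23% from 2 to 10 FPKM, 8.75% and 2.69% from 10 to 50, and 8.18% and 3.56% from 50 to 200. Among the 336 genes at 200 FPKM or more, 32 (9.52%) rose and 28 (8.33%) fell, close to even numbers. The pseudocount of 1 understates log2 differences of genes at low levels.

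**Figure D2:**
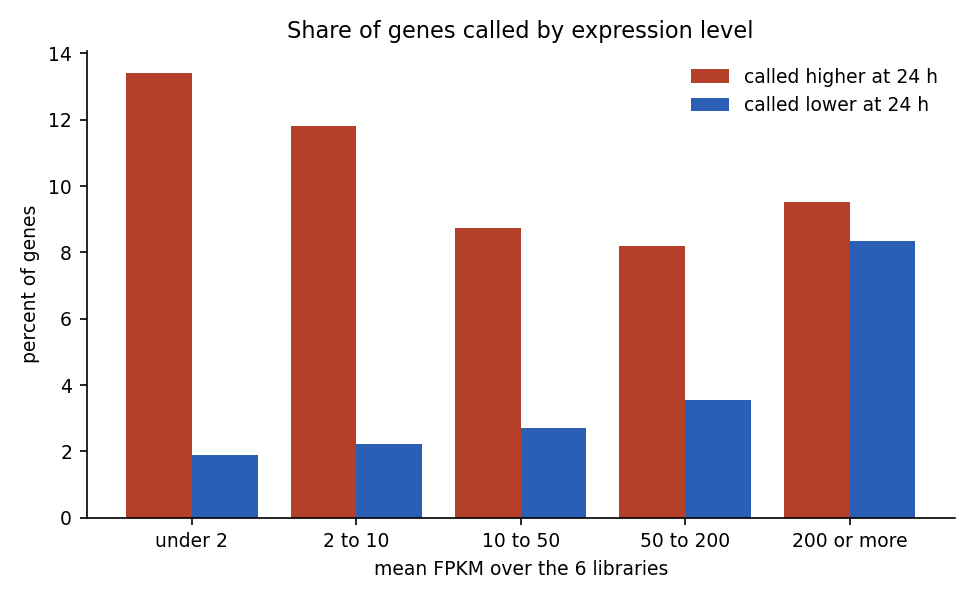
Percent of genes called higher or lower at 24 h against 12 h (vertical) in bins of mean FPKM over the 6 libraries (horizontal). The bars for lower genes grow from 1.89% to 8.33% with level, while those for higher genes go from 13.4% to 9.52%.

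As a share of summed FPKM, the genes considered held 99.5% ± 0.0526 in the 12 h libraries, 99.4% ± 0.0495 in the 24 h libraries and 91.2% ± 1.72 by 48 h (SD, n = 3). The genes that rose made up 4.45%, 4.06% and 3.73% of summed FPKM in 12 h replicates 1 to 3 and 14.5%, 13.4% and 13.8% at 24 h. The genes that fell made up 7.84%, 7.69% and 7.73% at 12 h and 1.84%, 2.46% and 1.99% at 24 h. Since the genes were called on these libraries, the directions follow from the choice. The sizes are given as a description, and the minimum of 1 log2 unit for a call raises them too. The summed rise of means was 54066 FPKM, of which 10 genes gave 20.7% and 100 genes 48.4%. Of the summed fall, 10 genes gave 39.7% and 100 genes 84.1%. The fall was summed over 567 genes and the rise over 2403. A shorter list by itself raises such shares, so those of rise and fall are not compared.

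The lists of the most abundant transcripts at the separate times overlapped in part. Of the 100 genes with the highest mean at 12 h, 67 were also among the 100 highest at 24 h. Of the 12 h list, which reached down to a mean of 427 FPKM, 22 fell, 3 rose and 75 were not called, with a median log2 difference of -0.40. Of the 24 h list, which reached down to 431 FPKM, 17 rose, 1 fell and 82 were not called, with a median of 0.23. Over all genes tested 9.53% were higher and 2.21% lower, and over the 336 genes at 200 FPKM or more 9.52% and 8.33%. Each list was chosen on one of the times compared, which by itself tilts its median and its counts.

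In mean FPKM, the largest rise among called genes with no overlap between libraries was that of Gbi03G0170. It stood at 869, 582 and 637 FPKM in the 12 h libraries and at 3191, 3752 and 3812 FPKM at 24 h. Every 24 h library was thus several times above every 12 h library, and the log2 difference was 2.38 (SE 0.30, adjusted p = 5.34e-05 in limma). It averaged 220.1 ± 70.5 FPKM (SD, n = 3) at 0 h, 5384 ± 711 FPKM at 36 h and 3708 ± 946 FPKM by 48 h, so that its mean was highest at 36 h in the time course. The step from 36 h to 48 h was not called (adjusted p = 0.131).

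The next largest rise was that of Gbi09G3040, from 1994, 1447 and 1455 FPKM at 12 h to 4204, 3628 and 4130 FPKM at 24 h. The groups did not overlap, and the log2 difference was 1.30 (SE 0.42, adjusted p = 0.0316 in limma). This call was lost with no filter on low values (adjusted p = 0.0832), with the replicate number as a block (0.0502) and without any one of 12 h replicates 2 and 3 or 24 h replicates 1, 2 and 3 (0.0537 to 0.094). Over all other settings run its adjusted p lay between 0.00313 and 0.0451. The same gene is listed at 0 in all 6 libraries of the authors' separate table of light and dark at 24 h, 3 of which are the 24 h light libraries, so its level depends on which deposited table is read.

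Among the genes that fell with no overlap between libraries, Gbi11G1850 had the largest fall in mean FPKM. Its 12 h libraries stood at 5051, 4933 and 4360 FPKM and its 24 h libraries at 793, 1140 and 941 FPKM. The lowest 12 h value was well above the highest 24 h value, and the log2 difference was -2.33 (SE 0.33, adjusted p = 0.000126 in limma). It had averaged 76.8 ± 45.6 FPKM at 0 h (SD, n = 3) and went on to 413 ± 118 FPKM at 36 h and 116 ± 16.9 FPKM at 48 h, which is a peak at 12 h.

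Gbi05G2506 followed the same course, at 2051, 1565 and 1964 FPKM at 12 h and 299, 338 and 301 FPKM at 24 h. Its log2 difference was -2.56 (SE 0.65, adjusted p = 0.00943 in limma). The SE comes from the spread pooled over the 5 times, to which 0 h added most, with 120.6 FPKM in replicate 2 against 11.2 and 10.1 in the others. Without that library the adjusted p was 1.18e-05, and over all other settings run it lay between 0.000661 and 0.0325.

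**Figure D3:**
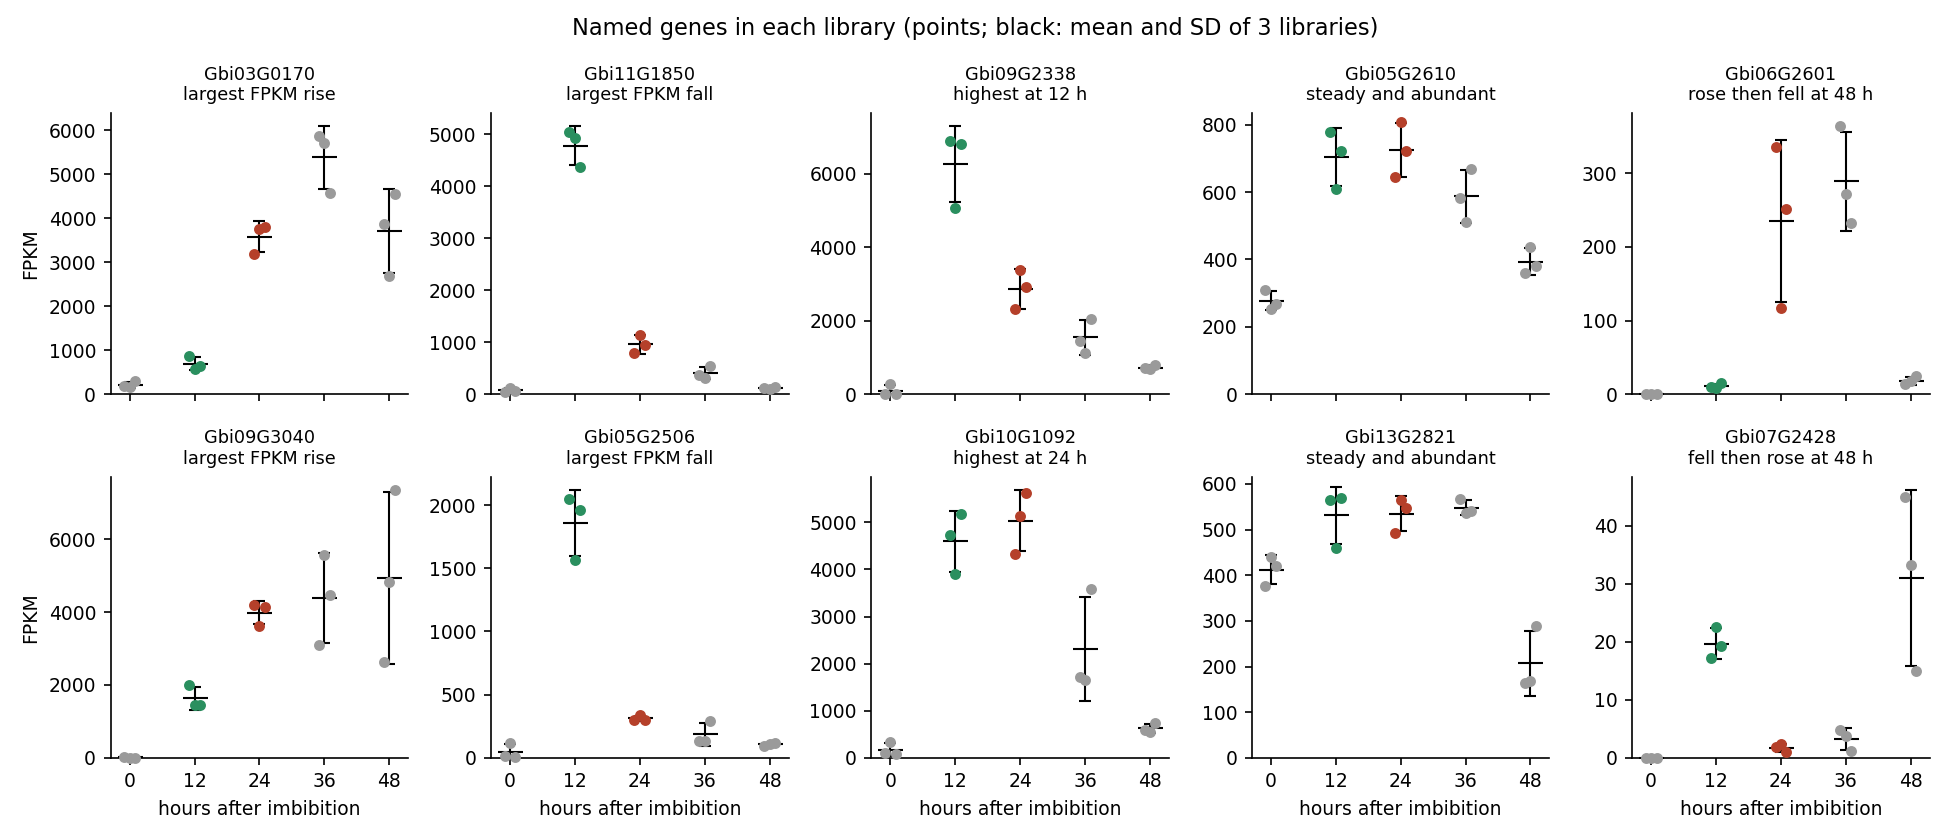
FPKM (vertical, linear axes from 0) of 10 gene IDs in each of the 15 libraries at 0, 12, 24, 36 and 48 h (horizontal). Points are libraries, with 12 h in green and 24 h in red, and black marks show the mean and SD of 3 libraries. Gbi11G1850 stands at 4360 FPKM or more at 12 h and at 1140 FPKM or less at 24 h, and Gbi05G2610 overlaps between these times.

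The transcript with the highest mean at 12 h, Gbi09G2338, was also lower at 24 h in each library but was not called. It stood at 6894, 5073 and 6817 FPKM at 12 h and at 2309, 3390 and 2916 FPKM at 24 h. The log2 difference was -1.13 with a 95% interval from -2.81 to 0.55 (adjusted p = 0.320 in limma). Here too 0 h replicate 2 stood apart, at 267 FPKM against 14.0 and 13.8 in the others. The gene passed without that library (adjusted p = 0.00629) and in a limma fit of the 12 h and 24 h libraries alone (0.0474). It did not pass under any other setting run, with adjusted p from 0.166 to 0.51.

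Gbi10G1092, the transcript with the highest mean at 24 h, had nearly the same level at 12 h. It stood at 4728, 3897 and 5168 FPKM at 12 h and at 4338, 5140 and 5631 FPKM at 24 h. The groups overlapped, and the log2 difference was 0.13 with a 95% interval from -0.85 to 1.12 (adjusted p = 0.871 in limma). After quantile normalization the difference was 0.91, also without a call. Between 36 h and 48 h it fell, with a log2 difference of -1.80 (SE 0.46, adjusted p = 0.00442).

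The most abundant genes whose interval lay within 0.5 log2 units of 0 were Gbi05G2610 and Gbi13G2821. Gbi05G2610 stood at 779, 610 and 723 FPKM at 12 h and at 646, 806 and 721 FPKM at 24 h, a log2 difference of 0.04 with a 95% interval from -0.37 to 0.45. Gbi13G2821 stood at 566, 459 and 568 FPKM at 12 h and at 493, 565 and 547 FPKM at 24 h, a difference of 0.02 with an interval from -0.45 to 0.48. In both genes the 12 h and 24 h libraries interleaved. Gbi13G2821 fell between 36 h and 48 h by 1.45 on the log2 scale (SE 0.22, adjusted p = 6.91e-05 in limma), and Gbi05G2610 had a mean of 277 ± 28.6 FPKM at 0 h (SD, n = 3), below each of its 12 h and 24 h libraries.

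The libraries at 0, 36 and 48 h do not enter the log2 differences of 24 h against 12 h, although they share in the pooled spread behind the calls. Their levels place the called genes in the time course. Over the genes that rose, the median log2(FPKM + 1) was 0.34 ± 0.08 (SD over 3 libraries) at 0 h and 1.72 ± 0.10 at 12 h. It was 3.37 ± 0.03 at 24 h, then 3.87 ± 0.22 at 36 h, and 4.42 ± 0.10 in the 48 h libraries. Their share of summed FPKM went on from 13.9% ± 0.522 at 24 h to 18.3% ± 2.43 at 36 h and 31.1% ± 1.27 at 48 h. In these genes 36 h replicate 3 was lower than the other 36 h libraries, at 15.7% against 18.9% and 20.4%. By means, 48 h was the highest time for 1436 of the 2403 genes, 36 h for 549, 24 h for 348 and 0 h for 70. No such counts over all genes considered are given here for comparison.

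**Figure D4:**
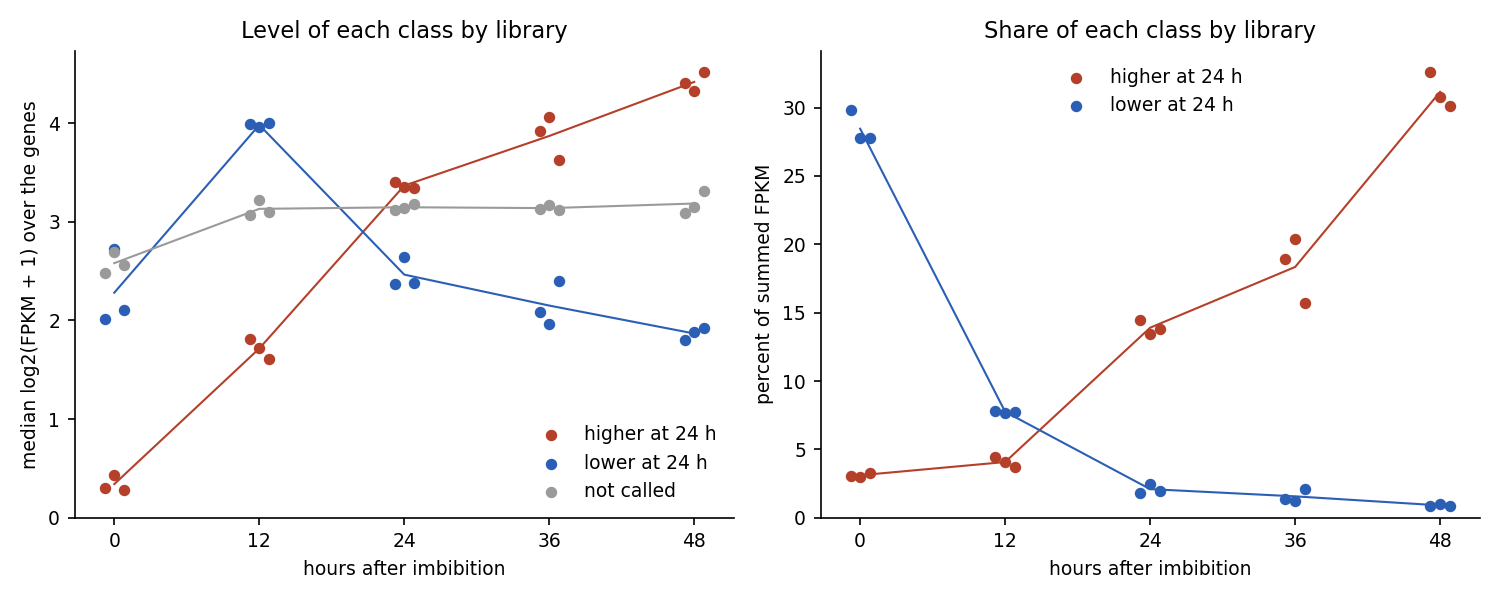
Median log2(FPKM + 1) of the 2403 genes that rose, the 567 that fell and the 19468 not called (left, vertical), and the percent of summed FPKM held by the called classes (right, vertical), in each of the 15 libraries by hours after imbibition (horizontal). Points are libraries and lines join the means of 3. The genes that rose reach 31.1% of summed FPKM at 48 h, and the genes that fell held 28.4% at 0 h.

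Genes that rose by 24 h were called in both directions later. In the comparison of 48 h with 36 h, which shares no library with 24 h against 12 h, 771 of the 2403 genes (32.1%) were higher, 338 (14.1%) were lower and 1294 (53.8%) were not called. The background over the 26086 tested genes was 14.8% higher and 12.3% lower in that comparison, and over the 19468 genes not called at 24 h against 12 h it was 8.90% higher and 13.4% lower. The 14.1% that were lower are thus near the background and are not a result about the genes that rose, while their 32.1% lies above both shares. Both comparisons take the spread of each gene from the same fit, so their calls are not independent. Set against the other list, the 771 genes were 30.4% of the genes considered that rose at 48 h, and the 338 were 11.03% of those that fell. Of all genes considered, 10.7% had risen by 24 h. The median log2 difference of 48 h against 36 h was 0.44 over the genes that had risen by 24 h and 0.00 over all genes considered.

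Up to 48 h, most of the gain in share lay in the 771 genes called higher again. This largely follows from choosing them for a rise between 36 h and 48 h. These 771 genes held 2.38% ± 0.149 (SD, n = 3) of summed FPKM at 24 h, 4.42% ± 1.21 by 36 h and 19.98% ± 1.99 by 48 h. The 1294 genes not called held 8.08% ± 0.309 at 24 h, with 10.2% ± 1.29 by 36 h and 10.2% ± 0.997 by 48 h. The 338 genes that came down went from 1.06% ± 0.126 at 12 h to 3.44% ± 0.155 at 24 h, and from 3.75% ± 0.201 at 36 h to 0.971% ± 0.0495 at 48 h, so that they were raised at 24 h and 36 h and near their 12 h share by 48 h. The subsets were chosen on the 36 h and 48 h libraries, and their changes between these times follow from that.

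Gbi06G2601 had the strongest rise and fall of these 338, judged by the smaller of its log2 differences in size. It stood at 10.5, 8.61 and 14.97 FPKM at 12 h and at 336, 117 and 252 FPKM at 24 h, and the log2 difference was 4.16 (SE 0.34, adjusted p = 1.22e-06 in limma). At 36 h it stood at 364, 272 and 232 FPKM and at 48 h at 13.3, 17.6 and 24.3 FPKM, which made a log2 difference of -3.92 (SE 0.34, adjusted p = 4.34e-07). Its 48 h libraries lay in or close to the range of its 12 h libraries, while 24 h replicate 2 was the lowest of the raised libraries.

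Genes that fell by 24 h had come from unlike levels at 0 h. By the comparison of 36 h with 0 h, which also shares no library with 24 h against 12 h, 178 of the 567 (31.4%) were lower at 36 h than at 0 h, 203 (35.8%) were higher and 186 (32.8%) were not called. Among all genes tested, 12.5% were lower and 39.4% higher in that comparison, and among the genes not called at 24 h against 12 h 12.8% were lower and 36.0% higher. The 35.8% that were higher are thus near the background and are not a result about the genes that fell, while the 31.4% that were lower lie above both shares. Here too the calls share the spread of each gene and are not independent. The 178 genes were 6.56% of the genes considered that were lower at 36 h, and the 203 were 2.18% of those that were higher. Of all genes considered, 2.53% had fallen by 24 h.

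The 178 genes were abundant at 0 h. Their part of summed FPKM was 28.1% ± 1.23 (SD, n = 3) at 0 h, was down to 0.880% ± 0.174 by 12 h and to 0.256% ± 0.0405 by 24 h, and was 0.0856% ± 0.00591 by 48 h, with a median log2(FPKM + 1) of 6.92 ± 0.04 at 0 h and 3.47 ± 0.24 at 12 h. For these genes the step from 12 h to 24 h was a late stretch of a decline in share, most of which came before 12 h. Shares of summed FPKM are relative, so they do not give the amount of transcript lost. As a description, the 203 genes went from 0.147% ± 0.0702 at 0 h to 5.72% ± 0.106 at 12 h, then to 1.46% ± 0.236 at 24 h, and to 0.622% ± 0.0797 by 48 h. Their median log2(FPKM + 1) was 0.74 ± 0.36 at 0 h and 4.90 ± 0.07 at 12 h, so their level at 12 h lay between lower ones at 0 h and 24 h. The subsets were chosen on the 0 h and 36 h libraries, so that the order of these 2 times within each follows from the choice.

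**Figure D5:**
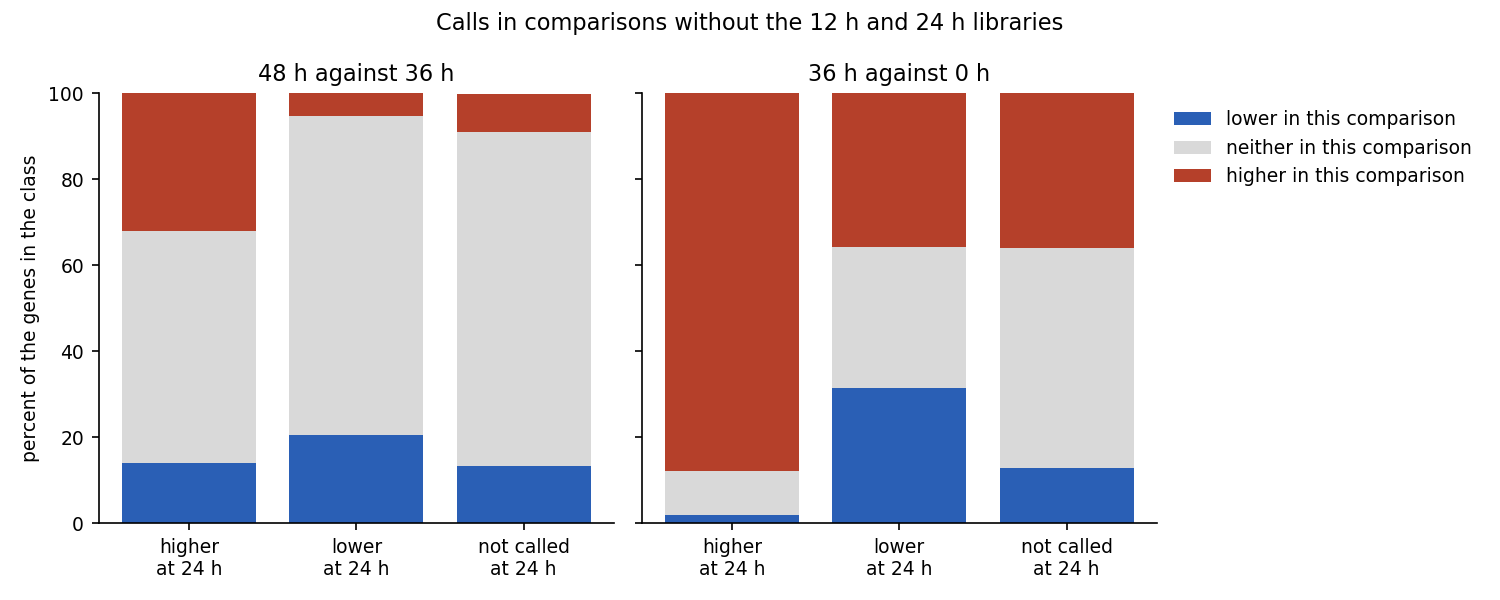
Percent of the genes (vertical) called higher, lower or neither at 48 h against 36 h (left) and at 36 h against 0 h (right), for the genes higher, lower or not called at 24 h against 12 h (horizontal). Of the genes higher at 24 h, 32.1% were higher again at 48 h, and 87.8% were higher at 36 h than at 0 h.

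Of the genes that fell by 24 h, more were lower again late than came back. At 48 h against 36 h, 30 of the 567 (5.29%) were higher and 117 (20.6%) were lower, against 8.90% and 13.4% of the genes not called at 24 h against 12 h, and 14.8% and 12.3% of all genes tested. Both counts moved with the scale, as did the list they are taken from. They were 75 and 182 of 664 lower genes with a pseudocount of 0.1, 50 and 176 of 697 after rescaling to TPM, and 49 and 166 of 893 after quantile normalization. Of these 30, Gbi07G2428 had the strongest fall and rise by the same measure. It stood at 17.2, 22.5 and 19.3 FPKM at 12 h and at 1.86, 2.30 and 1.01 FPKM at 24 h, and the log2 difference was -2.95 (SE 0.37, adjusted p = 5.49e-05 in limma). At 36 h it stood at 4.77, 3.82 and 1.21 FPKM and at 48 h at 44.98, 33.2 and 14.9 FPKM, which made a log2 difference of 2.89 (SE 0.37, adjusted p = 1.87e-05). It is listed at 0 in all 0 h libraries.

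By the comparison of 36 h with 0 h, 2109 of the genes that rose by 24 h (87.8%) were higher at 36 h and 44 (1.83%) were lower. Over all genes tested, 39.4% were higher and 12.5% lower in that comparison. By means, 1903 of these 2403 genes (79.2%) were lowest at 0 h and 466 at 12 h. A gene called higher at 24 h than at 12 h can hardly be lowest at 24 h. No counts of the lowest time over all genes considered are given here for comparison.

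The libraries of each time resembled one another more than those of the other time. Over the genes considered, log2 values correlated at 0.968 to 0.976 between 12 h libraries, at 0.951 to 0.972 between 24 h libraries and at 0.855 to 0.910 across the times. Replicate 2 at 24 h stood somewhat apart, with 277 genes at least 1 log2 unit above and 174 as far below both other 24 h libraries, against 41 to 62 above and 111 to 147 below for the others. In the genes that fell, the median distance below the 12 h mean was -1.20 in that library and -1.51 and -1.44 in the others, and in the genes that rose it was 1.41 against 1.53 and 1.42. Without it, 2452 genes were higher and 742 lower. Of the named genes, only Gbi09G3040 changed its call without this library (adjusted p = 0.0537 in limma).

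Some genes with consecutive ID numbers were called together. Of 1597 genes called higher whose next ID number was also tested, 243 (15.2%) were followed by a gene called higher, where 9.52% of such following genes were called higher in all. Of 376 called lower, 30 (7.98%) were followed by a gene called lower, against 2.19%. There were 28 runs of 3 or more consecutive IDs that rose, the longest of 4, and 5 such runs that fell, each of 3. The members of the longest rising run had log2 differences from 1.27 to 4.47 and means at 24 h from 2.44 to 160.4 FPKM. Positions and sequences were not used here, and near-identical copies can share reads, so the separate levels of such neighbours are uncertain. By the number that opens each ID, the share of genes called higher ran from 9.94% to 12.2% over the 13 numbered groups and was 6.80% over 397 scaffold IDs.

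The light-dark table places the named genes at 24 h in the dark, and shares its 24 h light libraries with the time course, so values are given side by side and only within that table. Gbi03G0170 stood at 5849 ± 754 FPKM in the dark and 4505 ± 411 FPKM in light (SD, n = 3). Gbi11G1850 stood at 1462 ± 143 and 1372 ± 285 FPKM, and Gbi05G2506 at 330.3 ± 20.1 and 336 ± 20.1 FPKM. Gbi06G2601 stood at 299 ± 51.1 and 379 ± 172 FPKM, and Gbi07G2428 at 1.72 ± 1.26 and 2.14 ± 0.881 FPKM. Gbi10G1092 stood at 11405 ± 2838 and 7448 ± 916 FPKM, and Gbi09G2338 at 5584 ± 980 and 3895 ± 768 FPKM. Gbi13G2821 stood at 1838 ± 387 and 1189 ± 57.5 FPKM, and Gbi05G2610 at 1584 ± 413 and 1239 ± 143 FPKM. Every dark library lay above every light library for Gbi03G0170, Gbi10G1092 and Gbi13G2821, the libraries overlapped for the other genes with values, and Gbi09G3040 is listed at 0 throughout. These differences were not tested, and no 12 h dark group was used here, so time and length of light exposure cannot be told apart in the step from 12 h to 24 h. Levels do not carry across the tables. The mean of the same 24 h light libraries was 535 FPKM in the time course and 1189 FPKM in the light-dark table for Gbi13G2821, and 724 and 1239 FPKM for Gbi05G2610. Over 14410 genes considered with a mean of 5 FPKM or more at 24 h, the log2 means of these libraries in the separate tables correlated at r = 0.829. Of these genes 185 (1.28%) averaged under 0.1 FPKM in the light libraries of the other table, among them 23 of 1710 genes that rose and 3 of 272 that fell.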

How the data were processed

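Values are FPKM as deposited by the authors, per the file headers, in a time-course table of 15 libraries and a separate light-dark table of 6. The submitters' processing notes list HISAT2 2.0.4, HTSeq 0.6.0 and Trimmomatic 0.36. The build, gene annotation and strandedness were not given in the sources used here. Depth is unknown: low values of the time course fell on no steps of whole fragments (at most 0.790% of 1772 low-value pairs in one 0.01 log2 bin, against 14.5% in the light-dark table), so no counting interval is given. All per-sample columns were used.

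The 24 h columns of the time course do not say light or dark. These columns were read as the 24 h light libraries, since dark has its own columns in the other table. Their deviations from the group mean correlated across genes at 0.777 to 0.822 with same-numbered light columns and at -0.0997 to 0.0833 with the dark ones.

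Genes at 1 FPKM or more in at least 3 of 15 libraries (26086) were fitted with limma 3.58.1 in R 4.3.3 on log2(FPKM + 1), with group means for 5 times, a prior variance that follows the mean level, and p-values adjusted by Benjamini-Hochberg over all of them. Tests were two-sided, with calls at an adjusted p under 0.05 and a log2 difference of at least 1. The steps were tested on simulated data with changes planted only in genes at higher levels. Whether changes at low levels are found was thus not tested. Named genes were the 2 largest rises and falls in mean FPKM among called genes with non-overlapping libraries, the highest gene at each time, the 2 most abundant uncalled genes with a 95% interval within 0.5, and the gene with the strongest reversal at 48 h in each order, by the smaller of its absolute log2 differences. Gene lists could not be matched to IDs. The genes, rules and tests were chosen with earlier results of these data known.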

Additional observations from a re-analysis of the deposited data

How the results depend on the processing

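The counts of 2970 genes called, 2403 higher and 567 lower moved by over 1.5 times in 2 settings: they were 6539, 4541 and 1998 once the fold minimum was dropped, and 893 genes were lower after quantile normalization. Leaving out each 12 h or 24 h library gave 2671 to 3194 called, 2172 to 2452 higher and 472 to 742 lower. The genes higher and then higher at 48 h against 36 h (771), higher then lower (338), lower then higher (30) and lower then lower (117) became 1995, 884, 376 and 566 with no fold minimum. The last pair became 75 and 182 with a pseudocount of 0.1 and 50 and 176 with TPM, and the genes lower then higher became 49 after quantile normalization. The cause was not tested. With the replicate number as a block 2949 genes were called, 2388 higher and 561 lower. Same-numbered libraries deviated together at r of -0.0118, 0.00904 and 0.224, so no pairing was assumed. Dropping 0 h replicate 2, chosen after seeing the data, gave 3026 calls. Over the refits of the 10 named genes, 161 left the call as it was, 7 lost it, all for Gbi09G3040, 2 gained one, both for Gbi09G2338, and none reversed. Counting neighbours among tested genes only gave 354 and 33 in place of 243 and 30. Unknown depth limits what can be said of genes at low values.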
